A study of Arabidopsis thaliana with 6 samples.

Results

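The genes described here are the 99 Arabidopsis thaliana loci whose transcript counts were lower in the mutant bdh1-1 bdh2-1 in every library, by a factor of 2 or more between the closest libraries of the genotypes. They were chosen by their levels in CPM, which is the count divided by the library total, times 1000000. A gene was taken when its mean WT level was at least 1 CPM and its lowest WT value was at least 2 times its highest bdh value. Of 38064 annotated genes, 18229 had a mean WT level of at least 1 CPM, and 99 of these, or 0.543%, met the rule. The mirrored rule, with the genotypes exchanged, was met by 158 genes. Since the rule used the contrast between the genotypes in all 6 libraries, the lower level of these genes in bdh is a description and carries no test.

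The libraries were made from polyadenylated RNA of dark-grown seedlings, with 3 libraries of the bdh1-1 bdh2-1 double mutant and 3 of the wild type (WT), Col-0. All seedlings were kept in the dark for 5 days at 22 °C on plates with medium. The sample labels name whole etiolated seedlings as the tissue, and the design text names hypocotyls. The labels do not say whether the replicates were separate cultures, so the spread between libraries, and every p-value below, may reflect technical variation in part. In such bulk samples, fewer cells of a type and less RNA per cell cannot be told apart.

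BDH1 and BDH2 are the plant relatives of the animal BCL7 proteins, small subunits of SWI/SNF complexes. These complexes use ATP to slide or evict nucleosomes, which opens promoters and other regulatory DNA to transcription factors. In darkness, Arabidopsis seedlings elongate the hypocotyl, keep the cotyledons closed and hold back greening until light arrives.

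The bdh libraries held 44982000, 40876788 and 44942255 counts in replicates 1 to 3, and the WT libraries held 44789662, 44754973 and 44496413 counts. A level of 1 CPM therefore stood for 40.88 to 44.98 counts. Transcripts of PORA and PORB, the protochlorophyllide reductases of dark-grown plants, summed to 1970, 2650 and 1508 CPM in bdh and to 1123, 1158 and 1350 CPM in WT. The 7 seed storage protein genes on the marker list summed to 0.80, 1.96 and 0.979 CPM in bdh, against 0.536, 47.4 and 78.7 CPM in WT. WT replicates 2 and 3 stood apart on this list, and its part in the results below was not tested except where leaving out a library is reported.

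**Figure D1:**
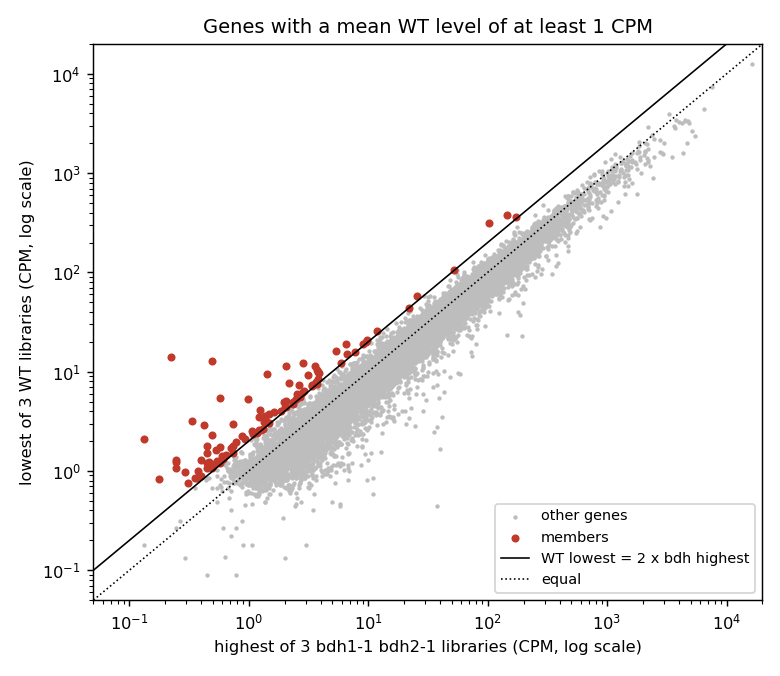
Each point is a gene with a mean WT level of at least 1 CPM, placed by the highest CPM of the 3 bdh1-1 bdh2-1 libraries (x axis, log scale) and the lowest CPM of the 3 WT libraries (y axis, log scale). The 99 members, in red, lie on or above the solid line where the lowest WT value is 2 times the highest bdh value, mostly close to it and mostly at low levels.

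The members were mainly low-abundance transcripts that lay close to the limit of the rule. The ratio of the lowest WT to the highest bdh CPM had a median of 2.41 and a range of 2.01 to 62.6. It was under 2.5 in 56 members, at least 3 in 26 and at least 4 in 17. The ratio of the mean WT to the mean bdh CPM had a median of 3.71 and ran from 2.18 to 136. The mean WT level was under 5 CPM in 52 members, over 10 CPM in 25 and over 50 CPM in 5. Per kilobase of exonic sequence, the median mean WT level was 2.35 CPM over the members, against 9.74 CPM over all genes with a mean WT level of at least 1 CPM.

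Just inside the limit lay AT5G63625, with a ratio of 2.01, the cytochrome P450 gene CYP705A19 with 2.02, and the asparaginase gene ASPGB1, the pseudogene AT3G13270 and the cupin gene AT3G05950 with 2.03 each. Just outside lay CYP76C1 with 1.98, AT4G11900 and AT5G38200 with 1.97 each, AT1G08765 with 1.95 and UMAMIT35 with 1.94. ASPGB1 measured 52.2, 47.8 and 52.7 CPM in bdh and 118, 107 and 107 CPM in WT. CYP76C1, which missed the rule, measured 3.65, 4.21 and 3.20 CPM in bdh and 8.64, 8.31 and 9.19 CPM in WT. These pairs show no break in the values at the limit, and 16 members had a ratio between 2 and 2.1 while 11 genes had one between 1.9 and 2.

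The quasi-likelihood test of edgeR, with p-values adjusted by the method of Benjamini and Hochberg and a threshold of 0.05, called 11.3% of the 20791 genes tested lower in bdh and 12.1% higher. All 99 members were among those called lower, a count that shares its contrast with the rule and from which nothing is read. Their fitted log2 fold changes, bdh over WT, ran from -7.02 to -1.09 with a median of -1.83, beside a median of 0.00 over all genes tested. In the authors' deposited table the same 99 genes had log2 fold changes of -7.01 to -1.07, with a median of -1.69.

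To see how the values behaved in a library that had no part in the choice, the rule was applied to 5 libraries and the genes it took were read in the sixth. With bdh replicate 1, 2 or 3 left out, 111, 138 and 123 genes were chosen, and 111, 137 and 122 of them lay below all WT libraries in the library left out. With WT replicate 1, 2 or 3 left out, 129, 165 and 111 genes were chosen, and 120, 161 and 111 of them lay above all bdh libraries in the library left out. The 2-fold gap itself held in the left-out library for 89.2%, 71.7% and 80.5% of the genes chosen without bdh replicates 1 to 3, and for 77.5%, 60.0% and 89.2% of those chosen without WT replicates 1 to 3. Among the genes not chosen, that share lay between 0.210% and 0.884%. Nearly every gene chosen on 5 libraries thus kept its side in the sixth, and WT replicate 2 was the library that most often narrowed the gap. Apart from the minimum WT level, the genes that kept the 2-fold gap are those that meet the rule on all 6 libraries. Such genes had to keep their side. These shares therefore describe the rule in these libraries and carry no test.

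The mutated loci were themselves among the most reduced genes, and so was a gene of an unrelated family. AT4G22320 and AT5G55210 are taken here as BDH1 and BDH2 from general knowledge of the literature, since neither the deposited files nor the annotation pair these names with loci. AT4G22320 (TAIR10.1 chr4:11792813-11794778, minus strand) had 8, 12 and 15 counts in bdh and 169, 143 and 148 counts in WT. AT5G55210 (chr5:22396426-22397446, minus strand) had 7, 14 and 22 counts in bdh and 693, 575 and 755 counts in WT. Both loci thus fell to a few counts in all 3 bdh libraries, with log2 fold changes of -3.63 ± 0.26 and -5.47 ± 0.26 (SE, n = 3 per genotype). AT4G22320 overlaps AT4G22310 on the other strand over 325 bases, and the strand setting of the counting is not stated, so reads there may not be told apart. Apart from the loci themselves, 1 member lay within 1 Mb of each, a share of 1.01% beside 1.87% and 1.97% of all genes with a mean WT level of at least 1 CPM.

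The largest ratio of all, 62.6, belonged to AT2G06845, which is annotated as a beta-galactosidase related gene (chr2:2753443-2756008, plus strand). It had 2, 4 and 10 counts in bdh and 624, 802 and 797 counts in WT, a log2 fold change of -7.02 ± 0.30. The value was -7.81 without bdh replicate 3. AT1G66870, which encodes a carbohydrate-binding X8 domain protein of the kind that binds cell wall glucans, had 1, 5 and 6 counts in bdh and 94, 129 and 116 in WT. The glycine-rich protein gene AT1G04660 measured 1.29, 1.03 and 1.42 CPM in bdh and 9.42, 11.2 and 9.93 CPM in WT. The exostosin family gene AT4G16745, of a family of glycosyltransferases, measured 1.69, 1.52 and 2.05 CPM in bdh and 15.8, 11.4 and 13.5 CPM in WT. In each of these genes the 3 bdh values sat far below the 3 WT values, with no overlap, as the rule requires.

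**Figure D2:**
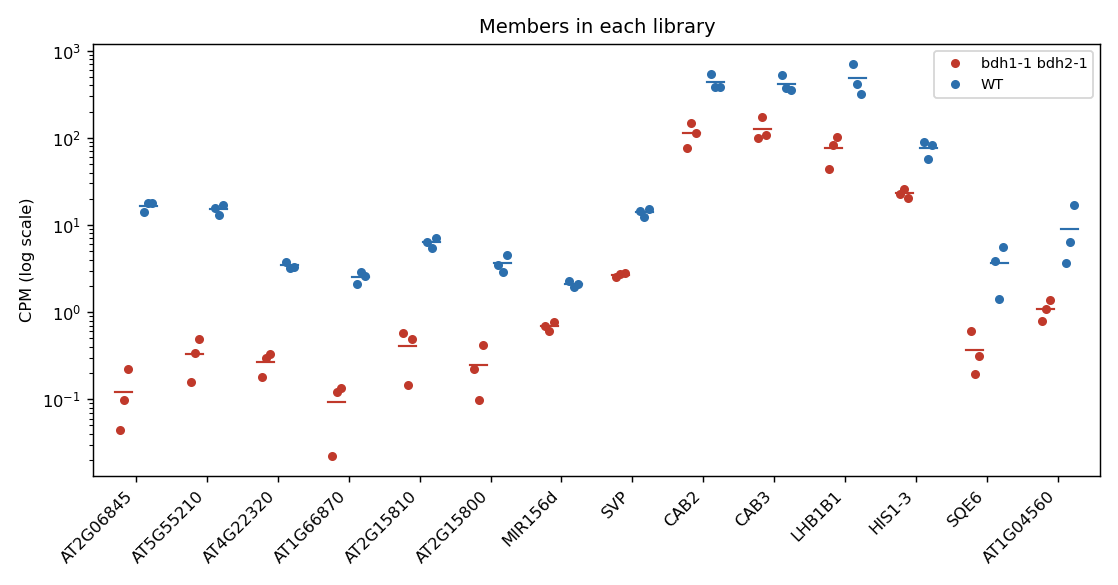
CPM (y axis, log scale) of 14 members in each library, with bdh1-1 bdh2-1 in red on the left and WT in blue on the right of each pair; bars are means of 3 libraries. The spread within a genotype is narrow for SVP and MIR156d and wide for SQE6 and AT1G04560, whose WT values run from 1.43 to 5.57 CPM and from 3.62 to 16.9 CPM.

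The most abundant members were 3 genes of LHCB1, the main chlorophyll-binding protein of the light-harvesting antenna of photosystem II. LHB1B1 measured 43.9, 82.7 and 103 CPM in bdh and 711, 417 and 315 CPM in WT. CAB2 measured 76.4, 146 and 115 CPM in bdh and 538, 388 and 379 CPM in WT. CAB3 measured 101, 173 and 107 CPM in bdh and 525, 370 and 359 CPM in WT. WT replicate 1 was the highest library for all 3 genes, and the 3 bdh libraries lay below every WT library. The log2 fold changes were -2.62 ± 0.35 for LHB1B1, -1.93 ± 0.22 for CAB2 and -1.69 ± 0.21 for CAB3. Per kilobase, the mean levels of LHB1B1, CAB2 and CAB3 were 58.4, 85.6 and 104 CPM in bdh and 367, 331 and 342 CPM in WT.

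The other antenna genes did not all follow. CAB1, the neighbour of CAB2, averaged 6311 ± 1113 CPM in bdh and 7696 ± 431 CPM in WT (SD, n = 3 each). Its log2 fold change was -0.26 with an edgeR quasi-likelihood adjusted p of 0.195. LHB1B2 was at 0 counts in all 6 libraries, and whether this reflects its expression or the counting was not tested. Of the 20 antenna genes tested, 7 were called lower and 0 higher by edgeR, beside 11.3% and 12.1% of all genes. The 4 called genes outside the rule were LHCB2.1, LHCB2.2, LHCB2.3 and LHCA1, with log2 fold changes of -0.813, -0.933, -0.998 and -0.754 and edgeR adjusted p of 0.00273, 0.00257, 0.00585 and 0.0144. The summed level of the antenna list was 12503, 15954 and 11943 CPM in bdh and 18556, 15766 and 16031 CPM in WT, so the sums of the genotypes overlapped. CAB2 shares a stretch of 823 bases with CAB1 at 96.1% identity, and CAB3 one of 836 bases at 96.1%. Their counts depend on how reads that match several genes were assigned, which the sources used here do not state.

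**Figure D3:**
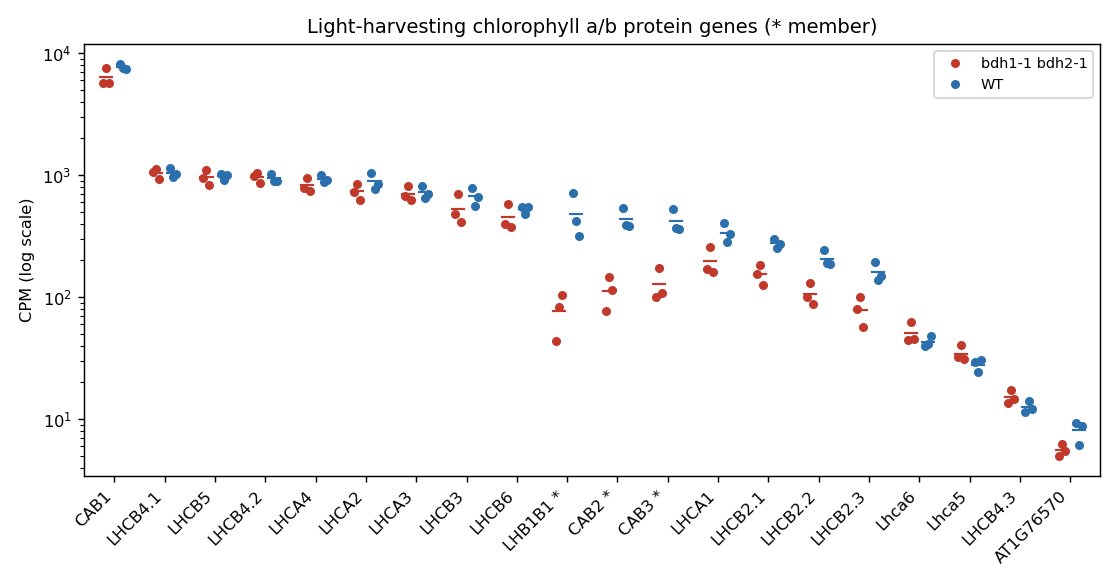
CPM (y axis, log scale) of the 20 antenna genes with counts, in order of mean WT level, with bdh1-1 bdh2-1 in red on the left and WT in blue on the right; asterisks mark the 3 members and bars are means of 3 libraries. LHB1B1, CAB2 and CAB3 stand apart by the gap between the genotypes, while the libraries of the genotypes overlap for CAB1 and LHCB5.

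The 250 bases before the annotated start of the 3 LHCB1 members and of CAB1 are given to set the promoters of genes that met the rule beside that of a close relative that did not. Bases are those of TAIR10.1 from RefSeq, 5′ to 3′ on the gene's strand, and capitals mark matches to the motifs searched.
CAB2: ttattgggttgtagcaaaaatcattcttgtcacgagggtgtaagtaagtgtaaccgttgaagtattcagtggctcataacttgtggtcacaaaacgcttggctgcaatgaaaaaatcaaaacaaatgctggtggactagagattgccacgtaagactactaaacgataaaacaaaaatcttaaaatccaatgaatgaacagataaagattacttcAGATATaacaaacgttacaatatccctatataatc
CAB3: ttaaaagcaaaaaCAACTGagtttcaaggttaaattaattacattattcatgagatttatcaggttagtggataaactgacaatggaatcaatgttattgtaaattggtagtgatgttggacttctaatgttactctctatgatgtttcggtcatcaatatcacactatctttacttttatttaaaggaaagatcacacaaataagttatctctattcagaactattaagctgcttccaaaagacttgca
LHB1B1: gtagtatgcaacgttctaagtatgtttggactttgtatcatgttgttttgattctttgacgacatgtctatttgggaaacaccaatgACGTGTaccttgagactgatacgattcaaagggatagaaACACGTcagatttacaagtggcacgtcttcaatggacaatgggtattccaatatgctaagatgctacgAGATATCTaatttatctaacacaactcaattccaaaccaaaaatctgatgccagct
CAB1: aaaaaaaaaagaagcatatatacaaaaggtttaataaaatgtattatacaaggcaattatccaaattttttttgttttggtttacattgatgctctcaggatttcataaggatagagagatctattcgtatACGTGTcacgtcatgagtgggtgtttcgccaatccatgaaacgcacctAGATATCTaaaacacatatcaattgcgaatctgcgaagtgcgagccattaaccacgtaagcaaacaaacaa
The windows lie at chr1:10475970-10476219 on the minus strand for CAB2, chr1:10473503-10473752 on the minus strand for CAB3, chr2:14524357-14524606 on the plus strand for LHB1B1 and chr1:10477635-10477884 on the plus strand for CAB1. ATATCT, the core of the evening element of circadian genes, was found in CAB2, LHB1B1 and CAB1, and in LHB1B1 and CAB1 it lies in the palindrome AGATATCT. ACGTGT was found in LHB1B1 and CAB1, and CAACTG in CAB3 only among these 4 windows. The member LHB1B1 and the non-member CAB1 thus held the same kinds of match, which are matches of letters and not shown to be sites.

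Over the 99 promoters, read on both strands, GATAAG was found in 24 (24.2%) and ATATCT in 34 (34.3%). The shares over all genes with a mean WT level of at least 1 CPM were 12.6% and 22.3%, and over all annotated genes 12.7% and 22.8%. TGGGCC was found in 5 member promoters (5.05%), against 16.9% of promoters of genes with a mean WT level of at least 1 CPM and 11.3% of all promoters. TTGACC was found in 17.2% of member promoters and 11.98% of those of genes with a mean WT level of at least 1 CPM, and CACGTG in 4.04% and 7.48%. TGTCTC was found in 12.1% and 10.5% of the same promoters, TATAAA in 47.5% and 45.9%, AACCCTA in 6.06% and 5.22%, ACGTGT in 12.1% and 11.2% and CAACTG in 8.08% and 6.29%. ACGTGT can overlap CACGTG by shared letters, and so a window can count for both. GATAAG was more frequent among members on both sides of 5 CPM, with 17.3% against 11.9% below that mean WT level and 31.9% against 12.8% at or above it. These shares rest on 52 and 47 members and were not tested. The windows of AT2G07140 and AT3G18320 share a long stretch that holds GATAAG, so these 2 matches are not independent. TGGGCC was less frequent on both sides, with 5.77% against 14.1% below and 4.26% against 17.7% at or above it.

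Transcription factors made up a small and mixed group of members. Among the MADS-box genes, which include the regulators of flowering and flower organs, 2 of the 20 with a mean WT level of at least 1 CPM were members. Their share was 10%, beside 0.543% of all genes at that level. SVP, which encodes a repressor of flowering, measured 2.53, 2.74 and 2.83 CPM in bdh and 14.5, 12.3 and 15.1 CPM in WT. SEP4, a floral organ identity gene, measured 0.445, 0.391 and 0.445 CPM in bdh and 3.17, 1.79 and 2.79 CPM in WT. SVP was among the tightest of the genes named, with an SD of 0.15 CPM over the bdh libraries and 1.48 CPM over WT, and a log2 fold change of -2.34 ± 0.13. Of the 29 MADS-box genes tested, edgeR called 6 lower and 4 higher, beside 11.3% and 12.1% of all genes.

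MYB2, a gene known from water stress and abscisic acid responses, measured 0.978, 0.685 and 0.801 CPM in bdh and 5.54, 5.59 and 5.30 CPM in WT. RKD1, an RWP-RK gene known from the egg cell, had 4, 10 and 7 counts in bdh and 68, 69 and 58 counts in WT. HDG2, an epidermal homeodomain gene, measured 8.69, 9.05 and 7.61 CPM in bdh and 23.3, 19.1 and 21.1 CPM in WT. WOX2, a homeobox gene of the early embryo, measured 1.02, 1.27 and 0.668 CPM in bdh and 3.13, 2.59 and 3.01 CPM in WT. HDG2 and WOX2 were 2 of the 3 members whose annotation names a homeobox or homeodomain, out of 152 such genes with a mean WT level of at least 1 CPM. Their share was 1.97%, beside 0.543% of all genes at that level. Of the 168 genes so annotated and tested, edgeR called 34 lower and 14 higher, beside 11.3% and 12.1% of all genes. The third such member, AT2G13960, is annotated only as a homeodomain-like superfamily protein. It shares 376 bases with MYB3R-5 at 97.1% identity, and its count is uncertain for that reason. These annotation words can thus take in genes outside the homeobox family, and how many was not counted. Single members came from 86 bHLH genes (AT1G22490), 66 genes whose annotation names AP2 (AT3G53310, a B3-like gene) and 564 zinc finger genes (AT4G10150, a RING protein). These lists were counted at a mean WT level of at least 1 CPM. The shares were 1.16%, 1.52% and 0.177%, beside 0.543% of all genes at that level. WRKY and NAC genes gave 0 of 48 and 0 of 62, beside 0.543% of all genes with a mean WT level of at least 1 CPM, a share that gives fewer than 1 member in lists of that size. CGA1, a GATA factor of chloroplast development, was chosen for its known role after its values were seen, and had 10, 10 and 4 counts in bdh and 97, 48 and 110 counts in WT.

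Among genes of chromatin and DNA, the clearest in absolute level was HIS1-3, the linker histone H1 variant that drought induces. It measured 22.9, 25.8 and 20.6 CPM in bdh and 88.6, 57.6 and 83.1 CPM in WT, a log2 fold change of -1.69 ± 0.15. The DNA replication helicase gene emb2411 measured 1.47, 1.37 and 1.09 CPM in bdh and 3.06, 3.22 and 4.36 CPM in WT. HIS1-3 and emb2411 were the 2 members among 194 genes with a mean WT level of at least 1 CPM whose annotation names a helicase, chromatin or histone. Their share was 1.03%, beside 0.543% of all genes at that level. Of the 205 tested, edgeR called 43 lower and 8 higher, beside 11.3% and 12.1% of all genes, with a median log2 fold change of -0.17. The Agenet domain gene AT5G52070 measured 7.96, 8.78 and 9.59 CPM in bdh and 21.7, 20.1 and 22.7 CPM in WT. The cyclin gene CYCB1;5 measured 1.98, 1.76 and 1.85 CPM in bdh and 6.36, 4.98 and 5.87 CPM in WT, but shares 390 bases with CYC1BAT at 97.7% identity.

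The shortest member was MIR156d, a precursor gene of miR156, the microRNA that keeps plants juvenile by acting on SPL transcription factor transcripts. Its mature strands are shown because the same 5p sequence comes from several precursor genes, so a lower MIR156d transcript need not be a lower miR156 level, which polyadenylated RNA does not measure. Bases 2 to 8 are in capitals to mark their position only.
miR156d-5p: uGACAGAAgagagugagcac
miR156d-3p: gCUCACUCucuuuuugucauaac
They lie at chr5:3456713-3456732 and chr5:3456643-3456665 on the minus strand. The 5p sequences annotated for MIR156a, MIR156b, MIR156c, MIR156e and MIR156f are the same as that of MIR156d. MIR156d had 31, 25 and 35 counts in bdh and 102, 88 and 93 counts in WT, a log2 fold change of -1.56 ± 0.23. MIR156a averaged 10.15 ± 0.828 CPM in bdh and 14.3 ± 2.63 CPM in WT, with a log2 fold change of -0.46 and an edgeR adjusted p of 0.0447. MIR156c averaged 14.5 ± 2.00 CPM in bdh and 15.1 ± 1.45 CPM in WT, with a log2 fold change of -0.02 and an edgeR adjusted p of 0.943 (SD, n = 3 each). MIR156e averaged 0.675 ± 0.143 CPM in bdh and 0.873 ± 0.0984 CPM in WT, with a log2 fold change of -0.34 and an edgeR adjusted p of 0.414 (SD, n = 3 each). MIR156b, MIR156f, MIR156g, MIR156h, MIR156i and MIR156j were at 0 counts in all 6 libraries. The summed level of the miR156 genes was 26.5, 23.0 and 28.5 CPM in bdh and 33.1, 27.8 and 36.1 CPM in WT, so MIR156d was a minor part of it and the sums overlapped.

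None of the SPL genes was a member. Of 16 genes named in RefSeq as squamosa promoter-binding factors, 10 had enough counts to be tested, and edgeR called 2 lower and 0 higher, beside 11.3% and 12.1% of all genes. These were AT5G43270, annotated as SPL2, with a log2 fold change of -0.70 and an edgeR adjusted p of 0.00232, and SPL10 with -0.49 and 0.0411. The lists of miR156, SPL and strigolactone genes were drawn up after the members were known. MIR156d lies inside AT5G10946, an uncharacterized gene on the same strand that was also a member, with 4.602, 3.40 and 5.41 CPM in bdh and 19.6, 16.2 and 17.1 CPM in WT. The reads of the pair may come from 1 transcript.

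The annotation placed SQE6 and AT4G22755 in sterol synthesis. AT4G22755, a methylsterol monooxygenase gene and the member within 1 Mb of AT4G22320, had 31, 27 and 42 counts in bdh and 98, 94 and 106 counts in WT, a log2 fold change of -1.50 ± 0.23. It was named after its values were seen. SQE6, a squalene epoxidase gene of the step that leads to sterols, had 27, 8 and 14 counts in bdh and 174, 64 and 248 counts in WT, a log2 fold change of -3.23 ± 0.52. Its WT libraries differed among themselves by a CV of 57.4%, and WT replicate 2 was the lowest. It was the only member among 5 squalene epoxidase genes with a mean WT level of at least 1 CPM. SQP2, its relative, was higher in bdh, at 19.0 ± 1.79 CPM against 10.6 ± 1.17 CPM in WT (SD, n = 3 each). Its log2 fold change was 0.87, with an edgeR adjusted p of 0.00192. XF1, SQE2 and SQE3 had edgeR adjusted p of 0.641, 0.568 and 0.121. None of the 9 brassinosteroid synthesis genes was a member, while edgeR called 4 of them lower (DWF4, BR6OX1, ROT3 and CYP90D1, with log2 fold changes of -0.52, -0.59, -0.64 and -0.78) and 0 higher, beside 11.3% and 12.1% of all genes.

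CCD8, LOG2, BSU1 and ACS11 are further members of hormone pathways, singled out after their values were seen. CCD8, which makes the strigolactone precursor carlactone, measured 5.91, 5.65 and 4.49 CPM in bdh and 12.3, 13.8 and 14.6 CPM in WT. Of the 3 other strigolactone genes tested, CYP711A1, MAX2 and AT3G03990, edgeR called 0, with log2 fold changes of -0.17, 0.12 and -0.01 and adjusted p of 0.274, 0.357 and 0.981. BSU1, a phosphatase of brassinosteroid signalling, had 32, 26 and 48 counts in bdh and 114, 114 and 148 counts in WT. LOG2, of the cytokinin-activating LOG family, had 4, 8 and 16 counts in bdh and 42, 56 and 38 counts in WT. ACS11, of the enzymes that make the ethylene precursor ACC, had 56, 36 and 106 counts in bdh and 226, 222 and 230 counts in WT. The gibberellin-regulated family gene AT1G22690 had 10, 4 and 20 counts in bdh and 96, 68 and 77 counts in WT. Its log2 fold change of -2.74 ± 0.42 became -3.42 without bdh replicate 3. The auxin-responsive SAUR-like gene AT2G21220 had 20, 16 and 22 counts in bdh and 82, 100 and 50 counts in WT.

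Metabolic and transport members included some of the more abundant ones. BCCP2, a biotin carrier subunit of the plastid enzyme that starts fatty acid synthesis, measured 11.2, 11.5 and 11.8 CPM in bdh and 32.4, 29.7 and 26.0 CPM in WT. The cupin gene AT3G05950 measured 17.8, 14.7 and 21.8 CPM in bdh and 44.2, 46.1 and 44.7 CPM in WT. The DUF584 gene AT4G04630 measured 7.20, 6.04 and 9.77 CPM in bdh and 25.3, 21.0 and 22.8 CPM in WT. In these 3 genes the WT libraries differed little, and the bdh libraries of AT3G05950 and AT4G04630 differed more. Of 460 genes with a mean WT level of at least 1 CPM whose annotation names a transporter, channel or permease, 3 were members. That share of 0.652% was near the 0.543% over all genes at that level. AMT1;2, an ammonium transporter, measured 1.24, 0.783 and 1.02 CPM in bdh and 5.14, 4.11 and 4.76 CPM in WT. DTX1, a MATE efflux carrier, measured 2.53, 3.40 and 3.29 CPM in bdh and 8.26, 7.42 and 10.4 CPM in WT, and shares 551 bases with AT2G14661 at 97.1% identity. The amino acid transporter family gene AT5G02180 had 20, 18 and 14 counts in bdh and 48, 48 and 50 counts in WT.

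Several members were receptor, kinase or immune receptor genes. SNC4, a receptor-like kinase of immunity, had 26, 50 and 12 counts in bdh and 324, 156 and 276 counts in WT. Its log2 fold change of -3.02 ± 0.42 became -3.66 without bdh replicate 2, and it shares 609 bases with AT1G66990 at 96.2% identity. The annotation words for kinases, which miss SNC4, found 4 members among 705 genes. That share of 0.567% was near the 0.543% over all genes with a mean WT level of at least 1 CPM. The 4 were the lectin receptor kinases AT5G59260 and AT5G59270, the leucine-rich repeat kinase AT1G60630 and the kinase AT5G03640. AT5G59260 measured 3.89, 3.35 and 3.83 CPM in bdh and 10.8, 10.2 and 9.69 CPM in WT, and AT5G59270 had 17, 15 and 16 counts in bdh and 47, 56 and 44 counts in WT. Lectins as a whole, which also include the member AT3G16530, gave 3 of 99 genes, or 3.03%, beside 0.543% of all genes with a mean WT level of at least 1 CPM. Of the 116 lectin genes tested, edgeR called 19 lower and 19 higher, beside 11.3% and 12.1% of all genes. The nucleotide-binding resistance gene AT1G61310 measured 3.78, 3.40 and 3.34 CPM in bdh and 9.94, 10.5 and 10.2 CPM in WT, and shares 1560 bases with AT1G61180 at 96.0% identity. The TIR-type gene AT1G56520 had 22, 14 and 8 counts in bdh and 116, 102 and 106 counts in WT. AT1G61310 was the only member of 31 genes on its list (3.23%), and AT1G56520 of 79 on the TIR list (1.27%). Both lists were counted at a mean WT level of at least 1 CPM.

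F-box genes gave 2 members of 146, AT3G18320 and AT2G07140, on chromosomes 3 and 2. Their share was 1.37%, beside 0.543% of all genes with a mean WT level of at least 1 CPM. AT3G18320 measured 5.91, 6.31 and 6.54 CPM in bdh and 19.5, 20.8 and 19.0 CPM in WT, and AT2G07140 had 9, 8 and 18 counts in bdh and 68, 70 and 57 counts in WT. They share 1112 bases at 95.7% identity with each other. They share 1363 and 1110 bases with AT3G44120 at 96.3% and 98.1%, so the counts of these genes are not independent. In all, 34 of the 99 members fell in a family or list, and the share of all genes in these lists was not counted. Peroxidases, lipid transfer proteins, expansins and extensins, arabinogalactan proteins, pectin enzymes, cytoskeletal proteins and WRKY and NAC factors were among the lists that held 0. The cytoskeletal list had 313 genes with a mean WT level of at least 1 CPM, and the others named had 37 to 138. At the share of 0.543% over all such genes, few or no members fall in lists of these sizes, so the empty lists are not read as an absence.

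By biotype, protein-coding genes made up 84 members and other loci 15. The share of other loci was 15.2% (exact 95% binomial interval 8.74% to 23.8%), beside 2.40% of the 18164 genes with a mean WT level of at least 1 CPM that matched the TAIR10.1 annotation. The intervals given for shares of members cover counting error only. Pseudogenes accounted for 8 of the 15, and 8 of the 168 pseudogenes at that level, or 4.76%, were members, against 0.474% of protein-coding genes. The rest were 6 lncRNA, ncRNA or misc_RNA loci and the single miRNA gene. Other loci made up 15.4% of members against 6.60% of genes below 5 CPM in WT, and 14.9% against 1.26% at or above it. Over all tested pseudogenes at that level edgeR called 35 of 168 lower (20.8%), the 8 members among them, and 16 higher (9.52%). The shares were 12.3% and 12.2% of protein-coding genes at that level, and 11.3% and 12.1% of all genes tested. A minimum on the WT level leaves out genes found mainly in bdh. The median log2 fold change of these pseudogenes was -0.17. Of the 158 genes of the mirrored rule, at any WT level, 6 were pseudogenes.

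Among the pseudogenes, AT2G15810 and AT2G15800 lie end to end on chromosome 2. AT2G15810 had 26, 6 and 22 counts in bdh and 289, 243 and 316 counts in WT, and AT2G15800 had 10, 4 and 19 counts in bdh and 156, 130 and 203 counts in WT. Their log2 fold changes were -3.90 ± 0.33 and -3.80 ± 0.38, and that of AT2G15800 became -4.44 without bdh replicate 3. AT4G04410 measured 1.98, 3.40 and 2.29 CPM in bdh and 12.4, 7.13 and 10.5 CPM in WT. AT4G28900 measured 3.69, 2.79 and 3.83 CPM in bdh and 8.53, 8.58 and 9.66 CPM in WT. AT3G28160 had 16, 30 and 22 counts in bdh and 236, 134 and 163 counts in WT, and shares 378 bases with AT3G29798 at 98.1% identity.

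Of the non-coding RNAs, AT3G00390 measured 3.60, 2.98 and 3.47 CPM in bdh and 11.7, 11.5 and 27.0 CPM in WT, with WT replicate 3 well above the others. AT5G03615 measured 1.89, 1.81 and 2.65 CPM in bdh and 7.43, 8.42 and 7.39 CPM in WT. AT4G13495 measured 1.40, 2.54 and 1.76 CPM in bdh and 8.22, 5.94 and 7.93 CPM in WT. It overlaps MIR850 on the same strand, which had 2, 2 and 6 counts in bdh and 20, 17 and 26 counts in WT, with a log2 fold change of -2.54 and an edgeR adjusted p of 0.00862. MIR5026 and MIR863, which overlap it too, had at most 5 counts in any library. Of the 18 miRNA genes with a mean WT level of at least 1 CPM, edgeR called 6 lower, the member MIR156d among them, and 0 higher. The shares were 12.3% and 12.2% of protein-coding genes at that level, and 11.3% and 12.1% of all genes tested. The median log2 fold change of these miRNA genes was -0.14.

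In length, the members had a lower median than the genes at the same minimum level. The median exonic length was 1551 bases (order-statistic 95% interval 1363 to 1791), beside 1806 bases over all genes with a mean WT level of at least 1 CPM. For protein-coding genes the medians were 1505.5 and 1815 bases, and the median number of exons was 3 and 5. Below 5 CPM in WT the medians were 1505.5 bases for members and 1567 bases for genes, and at or above it 1628 and 1871 bases. When the least ratio was set at 1.5 in place of 2, the median became 1824 bases, above the median of all these genes, so the shorter median did not extend to the wider group of 279 genes. GC content had a median of 40.8% over members and 41.3% over all these genes.

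The genotypes also differed by transcript length over all genes. With the genes in 4 classes of equal size, from the shortest to the longest, the median log2 fold change was 0.15, 0.05, -0.04 and -0.22, so that longer genes as a whole read lower in bdh. The members ran the other way, with 34, 26, 23 and 16 in those classes. The 158 genes of the mirrored rule, at any WT level, fell into these classes as 71, 39, 27 and 21, so both rules took more short genes than long ones. With counts corrected by a length trend fitted in each library, 105 genes met the rule, 92 of them among the 99. The members at the ends of the range were MIR156d with 118 bases and AT5G03615 with 389 bases, and AT2G42365 with 4978 and emb2411 with 4676 bases and 35 exons.

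**Figure D4:**
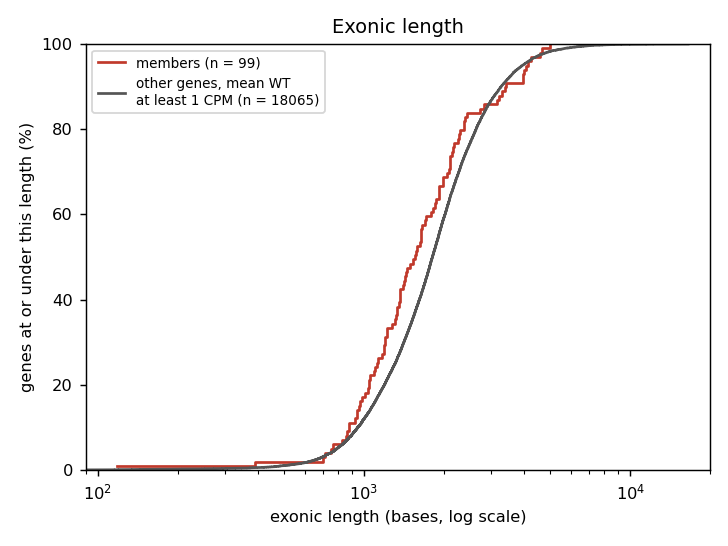
Cumulative share of genes (y axis, percent) at or under each exonic length (x axis, bases, log scale), for the 99 members in red and the other genes with a mean WT level of at least 1 CPM in grey. The red curve lies to the left over the middle of the range, with medians of 1551 bases for the members and 1806 bases for all genes at that level, and the curves meet among the longest genes.

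Along the genome, members lay on all 5 chromosomes, with 24, 23, 15, 18 and 19 on chromosomes 1 to 5. Chromosome 2 held 23.2% of members (interval 15.3% to 32.8%) and 15.1% of genes with a mean WT level of at least 1 CPM. An adjacent annotated gene was also a member for 8 of the 99 (8.08%, interval 3.55% to 15.3%), while 0.540% of genes at that level lay next to a member. With a minimum mean WT level of 5 CPM in the rule, the share of members next to a member was 4.26%. Within 10 kb, 14 members (14.1%) had another member, against 2.02% of genes. The 4 adjacent pairs were CAB3 with CAB2 (1153 bases apart), AT1G78450 with AT1G78460 (155 bases apart), AT2G15800 with AT2G15810 (79 bases apart) and MIR156d inside AT5G10946. Each pair lay on a single strand. The CAB genes and AT1G78450 with AT1G78460 are relatives by annotation, and MIR156d shares its bases with AT5G10946, so these are not independent loci.

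AT1G78450 and AT1G78460 encode heme-binding proteins of the SOUL family. AT1G78450 had 12, 16 and 26 counts in bdh and 108, 112 and 78 counts in WT, and AT1G78460 measured 6.94, 6.70 and 7.74 CPM in bdh and 16.7, 17.0 and 15.8 CPM in WT. The lectin kinase genes AT5G59260 and AT5G59270 lay 902 bases apart with 2 annotated genes between them. RKD1 lay 5471 bases from AT1G18810, a phytochrome kinase substrate-like gene with 18, 22 and 18 counts in bdh and 138, 65 and 56 counts in WT. The pseudogene AT4G04410 lay 7262 bases from the RNA locus AT4G02825, which had 29, 5 and 19 counts in bdh and 136, 77 and 64 counts in WT. In all, 18 pairs of members lay within 100 kb of each other.

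The genes next to members, which the rule did not use, were tested by edgeR in the fit over all genes. Of 189 adjacent genes that were not members, 98 had enough counts to be tested, and 25 (25.5%) were called lower in bdh and 9 (9.18%) higher, beside 11.3% and 12.1% of all genes. Their median log2 fold change was -0.14, beside 0.00 over all genes. At the first and second positions on each side, 21.1% to 28.6% of tested genes were called lower. From the third to the fifth position the share was 3.64% to 14.3%, close to the share over all genes or below it. Without the 11 tested genes that overlap a member, 22 of 87 were called lower and 6 higher.

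**Figure D5:**
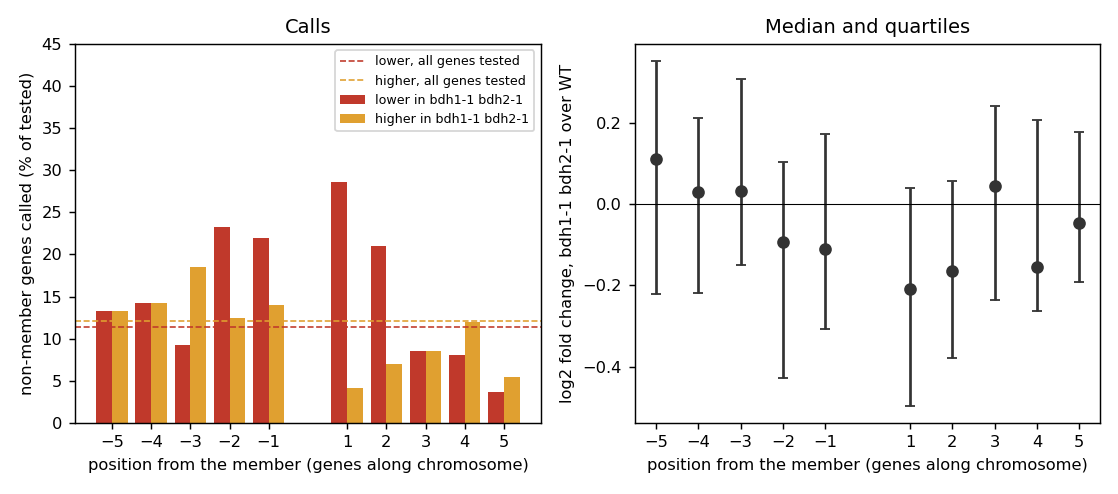
Left, the share of tested non-member genes called lower (red) or higher (orange) in bdh1-1 bdh2-1 by edgeR, by position in genes from the member (x axis, negative towards the chromosome start), with dashed lines for all genes tested. Right, the median log2 fold change, bdh1-1 bdh2-1 over WT, with bars from the lower to the upper quartile; medians at the first 2 positions on each side lie between -0.21 and -0.09.

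The lower neighbours were mostly on the member's own strand. Of adjacent genes that did not overlap the member, 18 of 60 on the same strand were called lower and 3 higher, and 4 of 28 on the opposite strand were called lower and 3 higher. NRP2, which lies between RKD1 and AT1G18810 and was not called, is counted once for each of them here. Same-strand neighbours were called lower in 10 of 29 cases before the member and 8 of 31 after it. The difference between the strands was not tested. AT1G03457, beside BSU1, had 756, 835 and 762 counts in bdh and 1669, 1411 and 1421 counts in WT, with a log2 fold change of -0.86 and an edgeR adjusted p of 0.000923. GLR2.3, beside its fellow glutamate receptor gene GLR2.2, had 61, 78 and 108 counts in bdh and 166, 200 and 204 counts in WT, with -1.13 and 0.0074. AT2G04050, beside DTX1, had 82, 178 and 146 counts in bdh and 256, 256 and 372 counts in WT, with -1.04 and 0.0214. The pseudogene AT4G16910, beside the RNA locus AT4G16892, had 81, 82 and 84 counts in bdh and 213, 148 and 217 counts in WT, with -1.15 and 0.00326. These 4 were chosen after their values were seen, and none shares a stretch of at least 100 bases at 95% identity with its member.

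A few neighbours were higher in bdh. AT5G02170, 162 bases from the member AT5G02180 and on its strand, had 905, 709 and 1081 counts in bdh and 476, 585 and 455 counts in WT, with a log2 fold change of 0.90 and an edgeR adjusted p of 0.00528. AT4G22310, which overlaps the mutated locus AT4G22320, had 3743, 3278 and 3881 counts in bdh and 2281, 3012 and 2742 counts in WT, with 0.51 and 0.0144. An annotated gene on the opposite strand overlapped 21 members (21.2%), against 26.4% of genes with a mean WT level of at least 1 CPM. For AT2G06845 that partner, AT2G05015, had 0 counts in the bdh libraries and 2, 2 and 6 in WT, where AT2G06845 itself had 624, 802 and 797 counts.

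The members differed in how tightly the libraries of a genotype held together. The median coefficient of variation (CV, the SD over the mean) was 21.9% over the bdh libraries and 13.3% over the WT libraries, beside 9.81% and 10.03% for all genes with a mean WT level of at least 1 CPM. Below 5 CPM in WT the bdh CV was 28.7% for members against 16.0% for genes, and the WT CV was 16.2% against 16.0%. This class matches genes by WT level and not by bdh level, which the rule holds lower in members. Low levels went with larger CVs over all genes, where the bdh CV was 8.67% at 5 CPM or more. The larger bdh CV of members therefore cannot be told apart from their lower bdh level. WT replicate 1 was the highest WT library for 48 members and replicate 2 the lowest for 52, so the lowest WT value that the rule reads came mostly from replicate 2. Over all genes with a mean WT level of at least 1 CPM, WT replicates 1 to 3 were highest for 32.1%, 30.8% and 37.1%. How often each was lowest over all genes was not counted.

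The widest WT spread was that of AT1G04560, an AWPM-19-like gene of a family known from abscisic acid treated cells, with 36, 44 and 62 counts in bdh and 162, 282 and 751 counts in WT. Its log2 fold change of -2.99 ± 0.51 became -2.18 without WT replicate 3. The superoxide dismutase family gene AT3G56350 measured 2.13, 2.79 and 1.16 CPM in bdh and 7.41, 6.03 and 15.6 CPM in WT. Both genes were highest in WT replicate 3, where the 7 seed storage genes also summed highest, at 78.7 CPM. CRA1 alone gave 71.6 CPM of that sum. The other seed storage genes were each higher in WT replicate 2 than in replicate 3, with CRU3 at 21.4 against 6.83 CPM. The part of seed RNA in their levels was not tested.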

How the data were processed

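Polyadenylated RNA was sequenced from strand-specific libraries, per the labels' protocols. The authors deposited raw counts per gene, and a comparison with a mean normalized count (a signal over all libraries), a log2 fold change, its standard error (a score of precision) and a p-value, per the file headers. STAR 2.7.10b, featureCounts, Subread 2.0.3, DESeq2 1.38 and TAIR10 are named in the submitters' processing notes, without order. The strand setting and the handling of multiply matching reads are not given in the sources used here.

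The rule was applied to CPM from the count totals. All genes were fitted with edgeR 4.0.16 in R 4.3.3 (filterByExpr, TMM, glmQLFit, glmQLFTest, Benjamini-Hochberg at 0.05, no covariate). ± after a log2 fold change is its SE. Of the counts from 1 to 20, 74.8% were even, and counts may therefore not be independent molecules. The fit was also run on simulated counts with the same spread setting for every gene, and nothing is read from that run.

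Names, biotypes, lengths and neighbours came from TAIR10.1 in RefSeq, which matched 37898 of the 38064 loci. Copies were sought with blastn (BLAST+ 2.17.0, at least 100 bases at 95% identity). Annotation words were matched without regard to case, except for abbreviations, a choice made after the family counts were seen. The rule for named genes took the mutated loci, the 10 largest ratios, the 10 highest WT levels, the 5 genes on each side of the limit, up to 5 members of each non-coding biotype, up to 4 in each family, adjacent members, the shortest and longest, and the most variable. The members and lists were chosen with earlier results of these data known.

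Alternatives were other scaling factors, filters, limits of the rule, a length correction, the newer quasi-likelihood method, DESeq2 1.42.0, a stricter threshold, a replicate block and each library left out.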

Additional observations from a re-analysis of the deposited data

How the results depend on the processing

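The number of genes that met the rule was 99. It was 1477 with no minimum WT level, where genes at 0 in bdh pass on few counts, 47 with a minimum of 5 CPM, 279 with a least ratio of 1.5 and 26 with 3. It lay between 111 and 165 with a library left out, and was 165 without WT replicate 2. TMM, RLE and upper-quartile factors gave 95, 95 and 84 genes, 92, 92 and 82 of them among the 99. The median exonic length was 1824 bases with a least ratio of 1.5 and 1479 to 1791 bases with a library left out. The share of members next to a member was 4.26% with a minimum of 5 CPM and lay between 6.32% and 9.30% over the other alternatives run.

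edgeR called 2356 genes lower, 703 at an adjusted p under 0.01, and between 745 (without bdh replicate 1) and 2716 (without WT replicate 2) with a library left out, with 1049, 1233 and 1509 without WT replicate 1, WT replicate 3 and bdh replicate 3. With a replicate block it called 918, and the correlations of same-numbered libraries, 0.0469, -0.281 and -0.168, do not pair the samples. Members called lower numbered 99 in every fit but the one restricted to genes of 10 or more counts in each library, where 79 were tested and called, and 98 at an adjusted p under 0.01. All 680 values of named members under alternatives kept their direction and call. Both of these counts share their contrast with the rule, and nothing is read from them. Members with few counts in bdh are limited by depth, and 4 had 3 counts or fewer in a bdh library.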
